A study of Homo sapiens with 96 samples.

Results

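Cytosolic ribosomes are built from ribosomal RNA and the ribosomal proteins, which are encoded by separate genes scattered over the genome. The genes described here are the 77 rows of the deposited count table, of 60675 in all, whose symbol is RPL or RPS followed by a number (with an A or X where the gene carries one), RPLP0, RPLP1, RPLP2 or RPSA. Pseudogenes and RPS27L were left out. The rule used names only, and no measured value, but it was set with earlier results of these data known. It gave 46 genes of the large subunit and 31 of the small subunit, 1 row each, and all 77 were abundant enough to be tested in every comparison.

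RNA was sequenced from A549 cells, an established line from a human lung adenocarcinoma, in 96 libraries that form 32 groups of 3. In batch 1, cells received vehicle, a water extract of Paeoniae Radix (peony root) at 500, 100 or 20 µg/mL, or an ethanol extract of the same root at 500, 100 or 20 µg/mL. In batch 2, cells received vehicle or 1 of 8 constituents at 10, 2 or 0.4 µM, namely albiflorin, benzoic acid, catechin, gallic acid, hederagenin, paeonol, paeoniflorin and oleanolic acid. The kind of vehicle and the time of exposure were not stated in the labels. Nor do they state whether the 3 libraries of a group came from different cultures, so a p-value here covers the variation among the libraries alone, and that may be technical variation.

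Library totals were 17.9 M to 28.1 M counts in batch 1 and 15.7 M to 35.6 M in batch 2 (M, mega). Among the A549 markers, KRT8, KRT18, AKR1B10 and ALDH1A1 were above 1000 CPM (counts scaled to a common library size, counts-per-million) in all libraries, whereas the lung surfactant genes SFTPA1, SFTPB and SFTPC were at most 0.325 CPM. The rest of the A549 list was lower: KRT19 at 17.7 to 78.5 CPM, CDH1 at 22.8 to 46.7 CPM and EPCAM at 0.785 to 13.4 CPM. COL1A2, a fibroblast collagen, was above 10 CPM in 4 libraries of batch 2 (catechin at 10 µM replicate 2, catechin at 2 µM replicate 2, gallic acid at 2 µM replicate 1 and gallic acid at 0.4 µM replicate 1) and at most 605 CPM. Of the other fibroblast genes listed, DCN was at most 0.941 CPM and POSTN at most 0.130 CPM in batch 2. LUM had a median of 0.522 CPM there, with its highest library above 10 CPM. COL1A1 (23.7 to 544 CPM), COL3A1 (7.43 to 66.8 CPM) and COL5A1 (86.5 to 273 CPM) were found in all libraries of batch 2. Whether fibroblasts were present was not tested. The 13 protein genes encoded by mitochondrial DNA took 13.9% to 18.5% of counts in batch 1 vehicle and 11.6% to 15.3% in the other libraries of that batch. In batch 2 they took 11.6% to 12.1% in vehicle but 0.486% to 15.5% among treated libraries. In 21 of the 75 libraries of batch 2 the mitochondrial share was under 5.81%, which is 1/2 of the lowest vehicle value. These libraries are spread over 16 of the 24 constituent groups and include the 4 with COL1A2. Of 18 libraries each, they number 1 for albiflorin and benzoic acid, 10 for catechin and gallic acid, 7 for hederagenin and paeonol, and 3 for paeoniflorin and oleanolic acid.

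Ribosomal protein mRNAs belong to the most abundant mRNAs of a growing cell, and their proteins are made in matched amounts. Most of them begin with a C followed by a run of pyrimidines, the 5′ terminal oligopyrimidine (TOP) motif, through which the kinase mTORC1 and the RNA-binding protein LARP1 control their translation and stability. When ribosome assembly is disturbed, RPL5 and RPL11 together with the 5S ribosomal RNA can bind MDM2, the ubiquitin ligase of p53.

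Of the 77 genes, 62 had an entry in a RefSeq table of gene starts (GRCh38.p14). At the annotated start, 42 of the 62 (67.7%) carried a C followed by at least 4 pyrimidines, against 4.07% of 35116 gene starts in the whole table. Allowing the run to begin up to 10 bases from the annotated start gave 55 of 62 (88.7%), against 33.5% of all starts. The large subunit (25 of 38) and the small subunit (17 of 24) did not stand apart in this count. The longest run, 19 bases, was that of RPL39. The starts of 12 genes that the results below turn on are printed with 10 bases before the start and 20 after it, on the gene's own strand. Capitals mark the unbroken pyrimidine run that begins with a C at the annotated start, and a start in lower case throughout has none.
RPL39 (chrX:119791611-119791640, minus strand): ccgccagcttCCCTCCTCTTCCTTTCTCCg
RPS18 (chr6:33272065-33272094, plus strand): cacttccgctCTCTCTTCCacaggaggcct
RPS21 (chr20:62387093-62387122, plus strand): ctagctgcttCCTTTCTCTCTCgcgcgcgg
RPL3 (chr22:39319604-39319633, minus strand): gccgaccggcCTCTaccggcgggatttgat
RPL11 (chr1:23691769-23691798, plus strand): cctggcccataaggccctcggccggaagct
RPL28 (chr19:55385922-55385951, plus strand): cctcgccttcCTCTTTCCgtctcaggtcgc
RPS3 (chr11:75399508-75399537, plus strand): cgagccacttCCTTTCCTTTCagcggagcg
RPS26 (chr12:56041908-56041937, plus strand): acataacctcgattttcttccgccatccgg
RPS27A (chr2:55231893-55231922, plus strand): agtgacacacaagacccagactcttcccta
RPL13A (chr19:49487598-49487627, plus strand): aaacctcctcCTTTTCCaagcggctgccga
RPL29 (chr3:51995876-51995905, minus strand): cagcccctttCTCTTCCggttctaggcgct
RPS27 (chr1:153990752-153990781, plus strand): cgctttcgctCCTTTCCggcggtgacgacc

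The ribosomal protein genes together took 4.44% ± 0.02 of all counts in the 3 vehicle libraries of batch 2 (SD, n = 3) and 4.19% ± 0.28 in those of batch 1. The large subunit genes took 1.60 ± 0.02 times the counts of the small subunit genes in batch 2 vehicle and 1.53 ± 0.01 times in batch 1 vehicle. Levels of different genes were compared as CPM per kilobase of the shortest GENCODE transcript that encodes the full protein. On that scale RPS16, a protein of the small subunit, led in batch 2 vehicle with 2279 ± 56 (SD, n = 3), followed by RPL41, the smallest ribosomal protein, with 2208 ± 16, and RPS19, which is often mutated in Diamond-Blackfan anaemia, with 1884 ± 7. The median gene stood at 686 CPM per kilobase. The lowest were RPL37 with 52.4 ± 4.4, RPL27A with 96.8 ± 1.8 and RPL22 with 104 ± 4. The annotated transcripts of RPL37, RPL27A and RPL22 are 7686, 4916 and 2078 bases long, against a median of 705 bases over the 77 genes. Their per-length levels rest on those long models. The same holds for the next lowest genes, RPS28 (1326 bases), RPL37A (3647 bases) and RPS23 (3437 bases). The vehicles of the batches differed in individual genes: RPL39, which lines the exit tunnel of the ribosome, stood at 552 CPM per kilobase in batch 1 and 913 in batch 2, and RPS26, which lies at the mRNA exit channel, at 660 and 457. Each batch was scaled on its own and batch cannot be told apart from other differences between the vehicles, so no test was made.

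**Figure D1:**
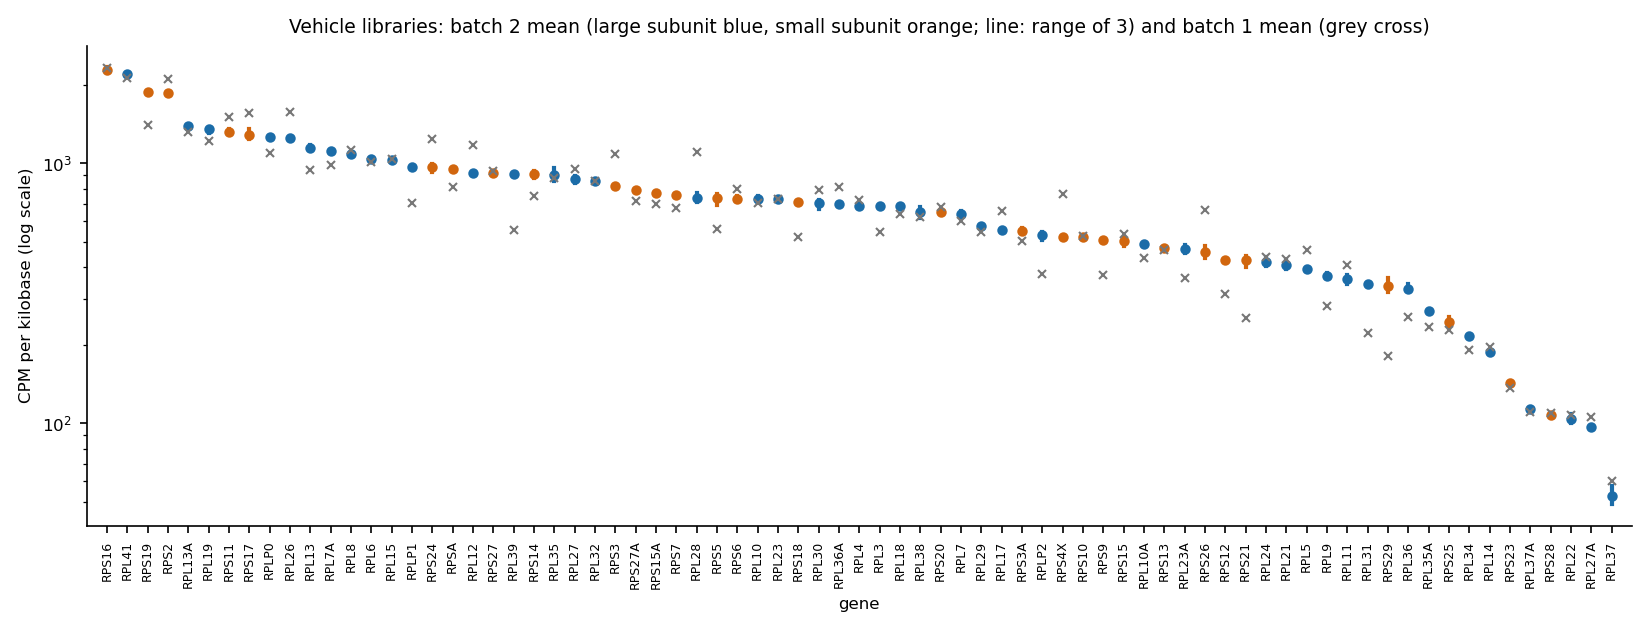
Level of 75 of the 77 genes in vehicle libraries, as CPM per kilobase of transcript on a log axis, with genes ordered by the batch 2 mean (dots, blue for the large and orange for the small subunit, with the range of 3 libraries as a line) and the batch 1 mean as a grey cross. RPS16 is at the left end with 2279 and RPL37 at the right end with 52.4. The crosses of RPL39, RPS21 and RPS29 lie below their dots, and those of RPS26, RPL28 and RPS4X lie above.

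Many ribosomal protein genes have processed pseudogenes whose reads can be hard to assign. The table lists between 0 and 93 pseudogene rows per gene. Pseudogene rows held 35.2% of the joint counts of RPL9 and its pseudogenes and 14.7% for RPL23A, so the values of RPL9 and RPL23A are uncertain. For the other 75 genes the share was at most 5.2%, the value of RPS2. The use of strand in counting was not stated, so reads of overlapping antisense genes could not be separated from those of the ribosomal protein genes.

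In cells treated with the ethanol extract at 500 µg/mL, the ribosomal protein genes as a set took a larger part of the library. Their share was 5.38%, 5.34% and 5.14% in the 3 libraries, against 4.07%, 4.51% and 3.99% in vehicle. The lowest treated library was above the highest vehicle library. The same held for their share of the counts outside the 13 mitochondrial genes, which was 5.94% to 6.13% after treatment and 4.89% to 5.24% in vehicle. Bulk RNA cannot tell more RNA of these genes per cell from less of other RNAs, or from a change in the number of cells of a kind. By edgeR's quasi-likelihood test, with Benjamini-Hochberg adjustment over 16854 genes and a threshold of 0.05, 56 of the 77 genes were higher than in vehicle and 2 were lower, and 19 did not pass. Over all genes tested, 34.7% were called higher and 34.4% lower. The median log2 difference of the 77 genes was 0.24, against 0.00 over all genes. In the large subunit 37 of 46 genes rose and 0 fell, with a median of 0.24. In the small subunit 19 of 31 rose and 2 fell, with a median of 0.22. With scaling by library totals, which shifts the median of all genes by 0.11, 69 rose and 1 fell, and the median of the 77 was 0.35.

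The 5 largest rises were those of RPL39, RPS18, RPS21, RPL31 and RPS9. RPL39 stood at 227, 234 and 203 CPM in vehicle and at 427, 431 and 347 CPM after the ethanol extract. Every treated library was above every vehicle library, and the log2 difference was 0.86 ± 0.13 (SE, edgeR adjusted p = 2.1e-06). RPS18, a protein of the head of the small subunit, stood at 311, 349 and 293 CPM in vehicle and at 538, 545 and 469.5 CPM after treatment, again without overlap. Its log2 difference was 0.70 ± 0.09 (edgeR adjusted p = 3.2e-07). RPS21, a small subunit protein, went from 88.7, 91.9 and 82 CPM to 142, 150 and 124 CPM (log2 0.66 ± 0.12, edgeR adjusted p = 4.1e-05). RPL31, which lies near the tunnel exit, rose by 0.64 ± 0.10 and RPS9 by 0.59 ± 0.08 on the log2 scale, each without overlap between the groups. In each of RPL39, RPS18 and RPS21, replicate 3 was the lowest library both in vehicle and after treatment.

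The proteins of the ribosomal stalk, which recruits the GTPases of translation, also rose. RPLP0 stood at 1358, 1335 and 1320 CPM in vehicle and 1846, 1871 and 1769 CPM after the ethanol extract (log2 0.45 ± 0.04, edgeR adjusted p = 2.1e-09). RPLP1 rose by 0.34 ± 0.06 and RPLP2 by 0.40 ± 0.08. RPL5 and RPL11, the partners of 5S ribosomal RNA, rose less: RPL5 by 0.21 ± 0.04 and RPL11 by 0.29 ± 0.05. RPL3, near the peptidyl transferase centre, went from 743, 837 and 777 CPM to 1178, 1167 and 1118 CPM, a log2 difference of 0.56 ± 0.05 (edgeR adjusted p = 7.8e-10).

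Among other proteins with roles of their own, RPS6, the substrate of the S6 kinases, rose by 0.17 ± 0.04, RPSA, also known as the laminin receptor precursor, by 0.29 ± 0.05 and RPL13A, also part of a translation-silencing complex, by 0.38 ± 0.06. RPS19 rose by 0.55 ± 0.09 and RPS14, the gene behind the anaemia of the 5q- syndrome, by 0.46 ± 0.09. RPL41 rose by 0.25 ± 0.05, RPL22, an RNA-binding protein, by 0.16 ± 0.05, and RPL23A, which binds the signal recognition particle at the tunnel exit, by 0.40 ± 0.05. Of the genes named by rule, RPS27A, which encodes a fusion of ubiquitin with a small subunit protein, did not pass (log2 0.16 ± 0.11, edgeR adjusted p = 0.23), nor did RPS2 (0.07 ± 0.04, 0.13) and RPS4X, the X-linked form of RPS4 (0.01 ± 0.06, 0.92). In RPS27A, vehicle replicate 2 with 639.6 CPM was above all 3 treated libraries, the highest of which had 598 CPM.

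RPS26 moved the other way. It stood at 387, 400.5 and 446 CPM in vehicle and at 167, 173 and 191 CPM after the ethanol extract. The highest treated library was below 1/2 of the lowest vehicle library, and the log2 difference was -1.22 ± 0.10 (edgeR adjusted p = 9.7e-11). It was between -1.27 and -1.11 in every alternative fit and with any 1 library of the groups left out. RPS26 is one of the 16 genes without a C-initial run at its annotated start, but a run of 5 bases begins 6 bases after it. RPL11, also without a run at its annotated start, rose after the same treatment. A link between the start sequence and the change was not tested. The only other fall, that of RPS15, a protein of the small subunit head, was -0.22 ± 0.07 with overlapping groups (edgeR adjusted p = 0.012), and it did not pass when libraries were scaled by their totals.

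The water extract at 500 µg/mL split the set. Against vehicle 15 of the 77 genes were higher and 22 lower, with 9.7% and 11.4% of all genes called higher and lower, and the median of the 77 was 0.01, equal to that of all genes. The large subunit had 8 rises and 11 falls and the small subunit 7 and 11. Scaling by library totals moved the median of all genes by 0.13 and the split to 31 higher and 10 lower, so the balance between rises and falls rests on the scaling. Leaving out vehicle replicate 3, or water extract replicate 1 or 2, lowered the number of calls from 37 to between 22 and 24.

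The largest rises after the water extract were those of RPL39, RPS29, RPS21, RPL31 and RPS18. RPL39 stood at 299, 343 and 262 CPM, above all vehicle libraries (log2 0.45 ± 0.13, edgeR adjusted p = 0.014). RPS29, a zinc-binding protein of the small subunit, stood at 73.6, 75 and 69.6 CPM against 55.3, 58.5 and 47.1 CPM in vehicle (0.44 ± 0.13, edgeR adjusted p = 0.017). RPS21 rose by 0.35 ± 0.12, RPL31 by 0.31 ± 0.10 and RPS18 by 0.30 ± 0.09. The largest falls were those of RPS26, RPL28, RPS4X, RPS3 and RPL26. RPS26 stood at 244, 236 and 268 CPM (log2 -0.72 ± 0.10, edgeR adjusted p = 1.6e-05). RPL28, a large subunit protein, stood at 638, 599 and 694 CPM against 880.2, 950.0 and 986 CPM in vehicle (-0.54 ± 0.07, edgeR adjusted p = 8.6e-06). RPS4X fell by 0.38 ± 0.06, RPS3, which sits at the mRNA entry of the small subunit, by 0.34 ± 0.06 and RPL26 by 0.34 ± 0.05, all 3 without overlap. After the ethanol extract at the same dose, by contrast, RPL28 and RPS4X did not pass, and RPS3 was 0.13 ± 0.06 higher than in vehicle (edgeR adjusted p = 0.044).

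**Figure D2:**
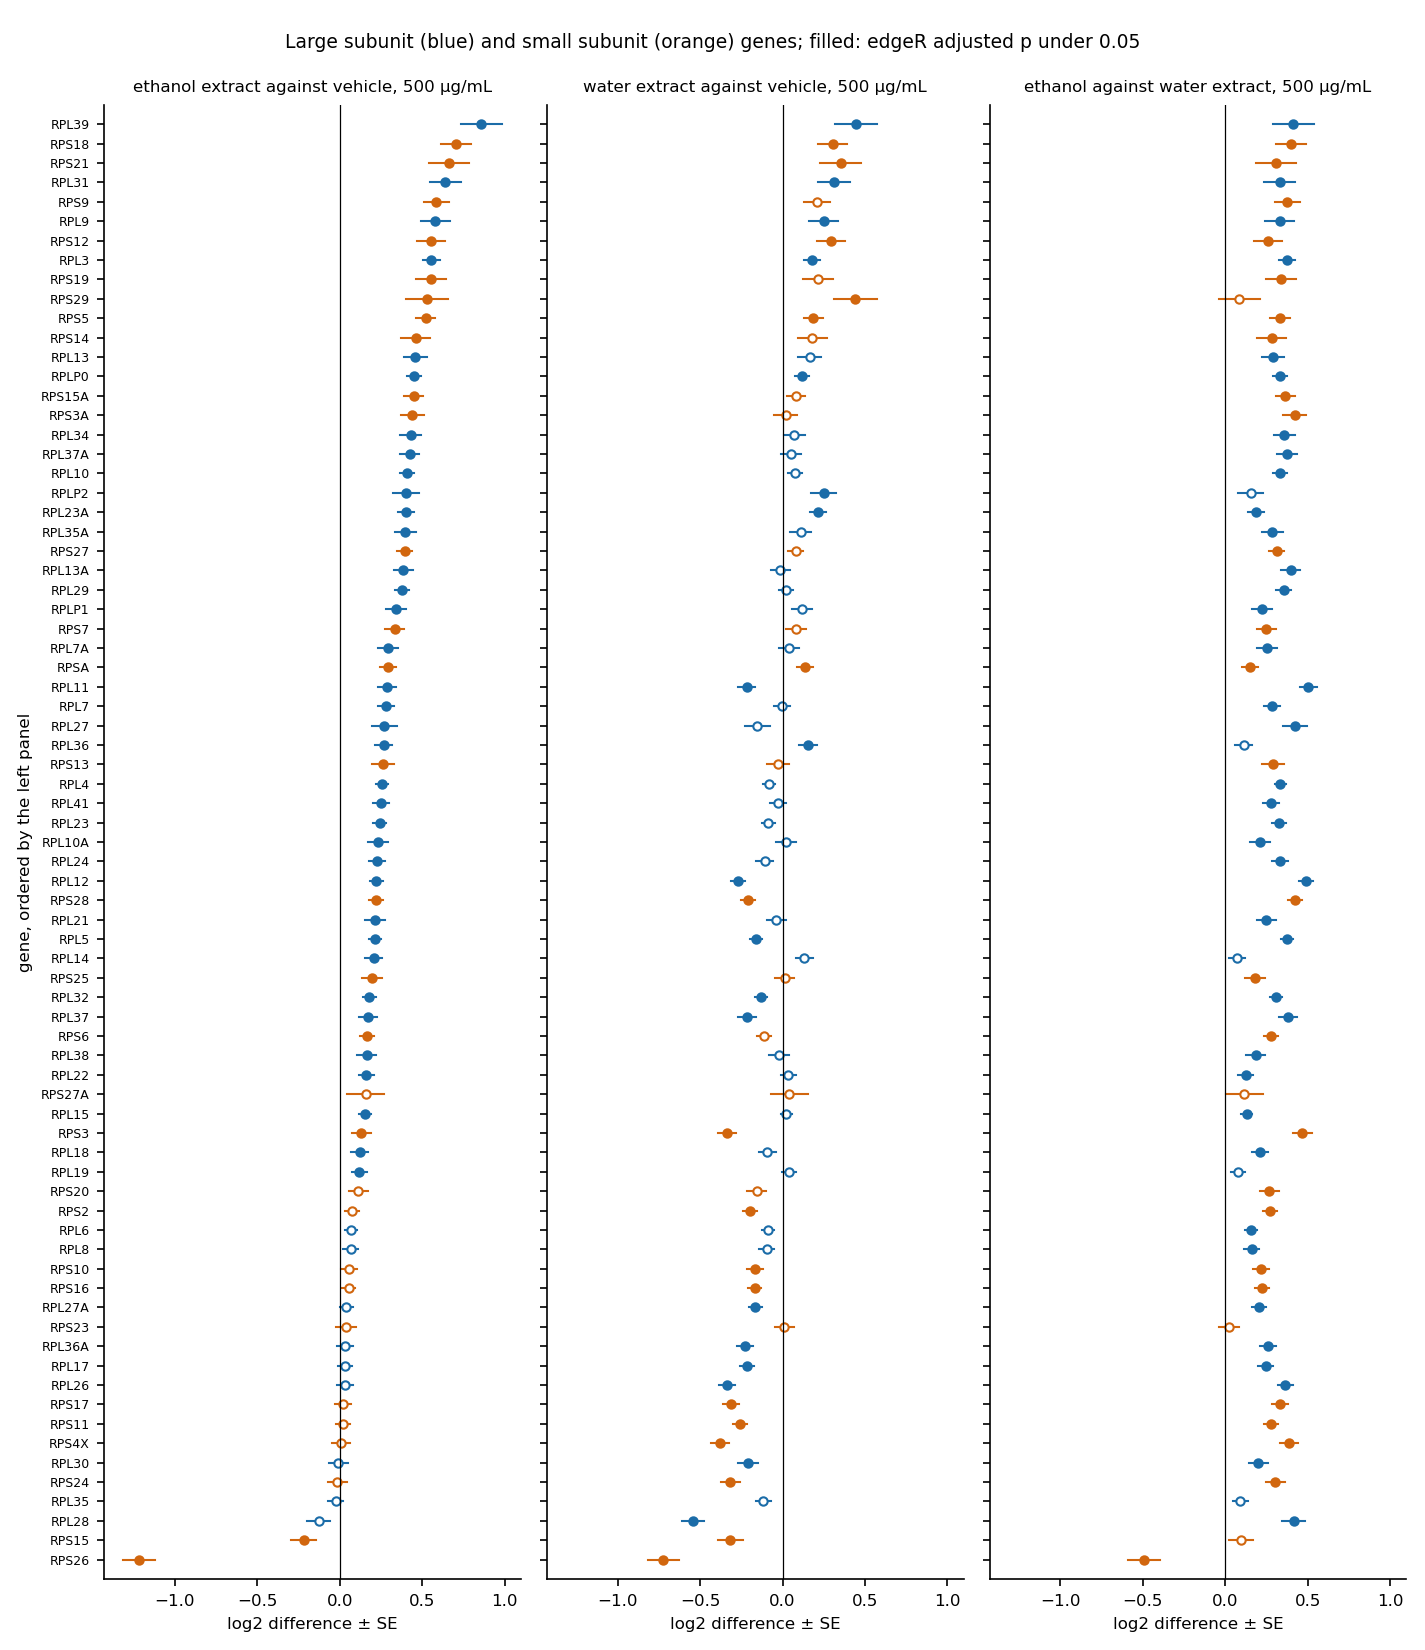
Log2 difference ± SE of 75 of the 77 genes at 500 µg/mL, for ethanol extract against vehicle (left), water extract against vehicle (middle) and ethanol against water extract (right), with large subunit genes in blue, small subunit genes in orange and filled symbols for edgeR adjusted p under 0.05. The genes are ordered by the left panel, with RPL39 (0.86) at the top and RPS26 (-1.22) at the bottom. In the right panel most genes are filled to the right of 0, and RPS26 is the filled symbol to the left.

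The extracts compared directly at 500 µg/mL do not involve the vehicle. There, 67 of the 77 genes were higher after the ethanol than after the water extract and 1 was lower, with 32.7% and 33.3% of all genes called higher and lower. The median log2 difference was 0.29, against 0.00 over all genes, with 41 of 46 large subunit genes and 26 of 31 small subunit genes called higher (medians 0.29 and 0.28). With each single library left out, between 63 and 69 genes were called. RPL11 led: it stood at 348, 366 and 352 CPM after the water extract and at 492, 512 and 509 CPM after the ethanol extract (log2 0.50 ± 0.05, edgeR adjusted p = 1.2e-08). RPL12, of the base of the stalk, followed with 0.49 ± 0.04, RPS3 with 0.47 ± 0.06, RPS28 with 0.43 ± 0.04 and RPL27 with 0.42 ± 0.07, each without overlap between the groups. RPL5, the partner of RPL11, was higher by 0.37 ± 0.04. RPS26 was the gene called lower, by -0.49 ± 0.10 (edgeR adjusted p = 9.5e-05). The mitochondrial share was 12.1% to 13.4% after the ethanol and 11.7% to 13.9% after the water extract. The summed level of the A549 epithelial markers was 6735 to 6766 CPM after the ethanol and 10955 to 11747 CPM after the water extract, and its part in the difference was not tested.

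At the lower doses the extracts gave smaller and mixed differences from vehicle. At 100 µg/mL the water extract gave 14 rises and 19 falls (5.58% and 6.98% of all genes), and the ethanol extract 17 and 12 (8.25% and 9.23%). At 20 µg/mL the water extract gave 12 rises and 15 falls (4.26% and 5.25%), and the ethanol extract 0 and 11 (3.63% and 3.82%). The medians of the 77 genes lay between -0.03 and 0.04. Scaling by library totals turned these splits into 29 and 10, 31 and 4, 29 and 7, and 6 and 7, in the same order. A change of scaling can move all genes together. The shift of the median of all genes under library totals is not given here for these doses, nor is the share of all genes called. The splits by library totals therefore cannot be read as particular to the ribosomal protein genes. The count for the ethanol extract at 20 µg/mL is the least settled: it was 21 with DESeq2 and 0 in a fit of the 2 groups alone, 6 without ethanol extract replicate 1 and 24 without replicate 3. For the water extract at 100 µg/mL, the count fell from 33 to 18 without vehicle replicate 3 and to 19 and 16 without treated replicates 1 and 2. At 20 µg/mL it fell from 27 to 12, 10 and 12 in the same order. For the ethanol extract at 100 µg/mL it fell from 29 to 17 without vehicle replicate 3 and to 19 without treated replicate 1, and it rose to 38 without vehicle replicate 2 and to 42 with the replicate number as a block.

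RPS26 was lower than in vehicle at these doses too. After the water extract it stood at 272, 262 and 289.6 CPM at 100 µg/mL and 271, 268 and 311 CPM at 20 µg/mL, with log2 differences of -0.58 ± 0.10 and -0.54 ± 0.10. After the ethanol extract it stood at 239, 281 and 291 CPM at 100 µg/mL and 252, 310.5 and 361 CPM at 20 µg/mL, with -0.60 ± 0.09 and -0.42 ± 0.09. No treated library reached the lowest vehicle value. RPL28 fell by 0.47 ± 0.07 and 0.43 ± 0.07 after the water extract at 100 and 20 µg/mL, and by 0.38 ± 0.07 and 0.37 ± 0.07 after the ethanol extract. RPS4X fell by 0.40 ± 0.06 and 0.35 ± 0.06 after the water extract at 100 and 20 µg/mL, and by 0.28 ± 0.06 and 0.29 ± 0.06 after the ethanol extract. RPS3 fell by 0.33 ± 0.06 at both doses of the water extract, and by 0.22 ± 0.06 and 0.31 ± 0.06 after the ethanol extract. RPL39 rose by 0.50 ± 0.13 and 0.45 ± 0.13 after the water extract at 100 and 20 µg/mL and by 0.46 ± 0.13 after the ethanol extract at 100 µg/mL. RPS21 (0.49 ± 0.12, 0.43 ± 0.12 and 0.39 ± 0.12) and RPS29 (0.46 ± 0.13, 0.43 ± 0.13 and 0.37 ± 0.13) rose in those same 3 groups. After the ethanol extract at 20 µg/mL these 3 genes did not pass. All 6 comparisons use the same 3 vehicle libraries, in which the mitochondrial share was 13.9% to 18.5% against 11.6% to 15.3% elsewhere in the batch. The batch 1 vehicle also differed from the batch 2 vehicle in these genes, in CPM per kilobase. It was higher for RPS26 (660 against 457), RPL28 (1102 against 738), RPS4X (763 against 523) and RPS3 (1087 against 818). It was lower for RPL39 (552 against 913), RPS21 (254 against 424) and RPS29 (181 against 338). Batch cannot be told apart from other differences between the vehicles. The part of these vehicle differences in the results was not tested.

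**Figure D3:**
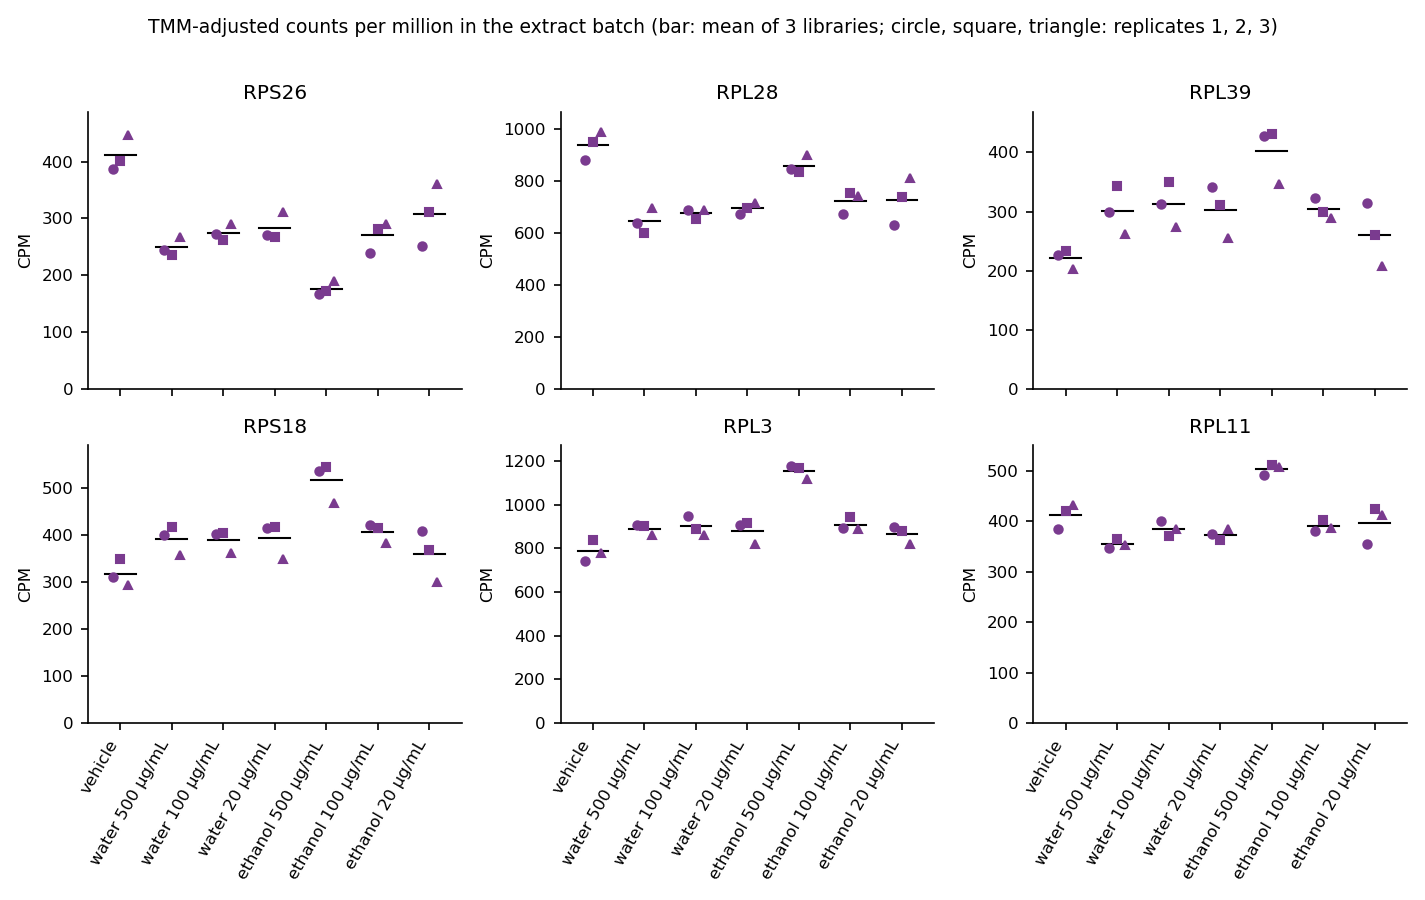
CPM of RPS26, RPL28, RPL39, RPS18, RPL3 and RPL11 in the 21 libraries of batch 1, with 1 symbol per replicate and a bar at the mean of each group of 3. RPS26 is highest in vehicle (387 to 446 CPM) and lowest after the ethanol extract at 500 µg/mL (167 to 191 CPM). RPL28 is lower in the water extract groups than in vehicle, and RPL3 and RPL11 are highest after the ethanol extract at 500 µg/mL.

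Between the extracts at the lower doses, 0 of the 77 genes were called at 100 µg/mL (1.77% of all genes, either direction) and 0 at 20 µg/mL (0% of all genes) by edgeR. At an unadjusted p under 0.05 the counts were 4 and 2. DESeq2 called 0 at both doses, and limma voom called 1 at 100 µg/mL.

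Other genes of the ribosome and of its control did not all follow the ribosomal protein genes after the ethanol extract at 500 µg/mL. The counts of these lists stand against the 34.7% of all genes called higher and 34.4% called lower in this comparison. Of 24 other mRNAs with a TOP motif that were tested, which encode translation factors and related proteins, 13 were higher and 6 lower than in vehicle (median log2 0.21). EEF2, the translocation factor of elongation, stood at 2374 ± 50 CPM (SD, n = 3) against 1348 ± 33 (log2 0.82 ± 0.03, edgeR adjusted p = 2.3e-16), EIF3L rose by 0.58 ± 0.03, EIF4B by 0.59 ± 0.03 and IPO5, an importin, by 0.49 ± 0.03. Of 12 host genes of small nucleolar RNAs, 8 were higher and 2 lower (median 0.41), among them SNHG7 (1.38 ± 0.08), SNHG16 (0.62 ± 0.03) and ZFAS1 (0.51 ± 0.04), which rose, and TAF1D, which fell by 0.63 ± 0.04. In contrast, of 22 chaperones and assembly factors of ribosomal proteins, 2 were higher and 17 lower (median -0.32). BCCIP, a chaperone of RPL23, fell by 0.96 ± 0.05, RRS1, which brings RPL5 and RPL11 into the precursor of the large subunit, by 0.91 ± 0.05, GTPBP4 by 0.98 ± 0.05 and GRWD1, the chaperone of RPL3, by 0.63 ± 0.03. Of 77 proteins of the mitochondrial ribosome, 4 were higher and 57 lower (median -0.41).

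Of 24 genes of mTORC1 and of TOP mRNA control, 7 were higher and 13 lower (median -0.12), again beside 34.7% and 34.4% of all genes. DDIT4, an inhibitor of mTORC1, rose by 0.94 ± 0.04 (edgeR adjusted p = 7.4e-15) and SESN1, another, by 0.88 ± 0.08. RPTOR, the scaffold of the complex, fell by 0.60 ± 0.04 and RPS6KB2, an S6 kinase, by 0.79 ± 0.05. Of 9 paralogs and fusion genes outside the 77, 1 was higher and 4 lower (median -0.09). RPL7L1, RPS27L and RPL36AL fell by 0.37 ± 0.03, 0.27 ± 0.05 and 0.19 ± 0.05. Of the 7 epithelial markers of A549, 6 were lower, and their sum was 6735 to 6766 CPM against 11349 to 12123 CPM in vehicle. Of the 5 immune markers, CD68 and CD14 were higher and the summed level was 21.4 to 27 CPM against 11.8 to 16.4 CPM, while PTPRC and CD3E stayed at or below 0.0415 CPM in batch 1. The fibroblast markers summed to 232 to 246 CPM against 322 to 362 CPM in vehicle, and the 3 endothelial markers, none of them abundant enough to be tested, to 0.43 to 0.65 CPM against 0.046 to 0.10 CPM. The part of these shifts in the values of the ribosomal protein genes was not tested.

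In batch 2 the ribosomal protein share spread widely between replicates of several constituents. The share was 4.42% to 4.46% in vehicle and 4.21% to 5.33% over the 18 libraries of albiflorin and benzoic acid. Over 18 libraries each, it was 4.35% to 7.91% for catechin and gallic acid, 4.11% to 9.02% for hederagenin and paeonol and 4.50% to 6.31% for paeoniflorin and oleanolic acid. The highest share, 9.02%, was that of replicate 2 of hederagenin at 0.4 µM, whose replicates 1 and 3 had 5.46% and 4.11%. Replicates of all genes varied more in batch 2, with a common edgeR coefficient of variation of 0.212, than in batch 1, with 0.0444.

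The ribosomal protein share was higher where the mitochondrial share was low. It was 4.89% to 9.02% in the 21 libraries of low mitochondrial share (median 5.97%) and 4.11% to 6.92% in the other 54 (median 4.64%). A smaller mitochondrial share by itself raises the share of every other gene. Of the counts outside the 13 mitochondrial genes, the ribosomal protein genes took 5.05% to 9.16% in the 21 libraries (median 6.02%) and 4.80% to 7.40% in the others (median 5.25%), a narrower gap. The ratio of large to small subunit counts was 1.33 to 1.54 in the 21 libraries (median 1.43) and 1.47 to 1.64 in the others (median 1.59). Individual genes went in opposite directions in the same libraries. Of the 77 genes, 45 had a higher and 32 a lower median CPM in the 21 libraries than in the other 54. In the large subunit 25 were higher and 21 lower, and in the small subunit 20 and 11. The median ratio was 1.03 for the large and 1.13 for the small subunit. These libraries were set apart by a value measured in them and not by a label, so the numbers are a description with no test. The same counts over all genes are not given here, so they cannot be read as particular to the ribosomal protein genes.

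RPS27A differed most. It was 827 to 3928 CPM in the 21 libraries (median 1582), 516 to 1603 CPM in the others (median 674) and 552 to 562 CPM in vehicle. RPL21 was 357 to 1044 CPM (median 597), against 241 to 262 CPM in vehicle. RPL13A was 2136 to 6044 CPM (median 3105), against 1645 to 1653 CPM, and RPS3 1002 to 2773 CPM (median 1432), against 696 to 716 CPM. These 4 genes were above the highest vehicle library in all 21 libraries. The same held for RPL4, RPL7A, RPL8, RPL13, RPL18, RPS2, RPS6, RPS9, RPS10, RPS14, RPS19, RPS20 and RPS23, which makes 17 of the 77. How many of all genes lay outside the narrow vehicle range in the same way is not given here.

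RPL29 and RPS27 differed most in the other direction. RPL29, a large subunit protein also known to bind heparin, was 46.3 to 202 CPM in the 21 libraries (median 134), 164 to 427 CPM in the others and 315 to 320.4 CPM in vehicle. RPS27, a zinc finger protein of the small subunit, was 35.4 to 235 CPM (median 153), against 327 to 329 CPM in vehicle. RPL10, a protein that joins the large subunit late in its maturation, was 323 to 828 CPM (median 594), against 921 to 958 CPM in vehicle. In all 21 libraries RPL29, RPS27, RPL10, RPS15A and RPL32 were below the lowest vehicle library, again without the same count over all genes. The starts of RPL13A, RPL29 and RPS27, printed above, each carry a run of 7 pyrimidines. RPL15 varied least over the 75 libraries (694 to 1259 CPM, a 1.82-fold range), and RPS27 most (35.4 to 480 CPM, 13.6-fold). In batch 1 the range over 21 libraries was 1.14-fold to 2.67-fold among the 77 genes.

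**Figure D4:**
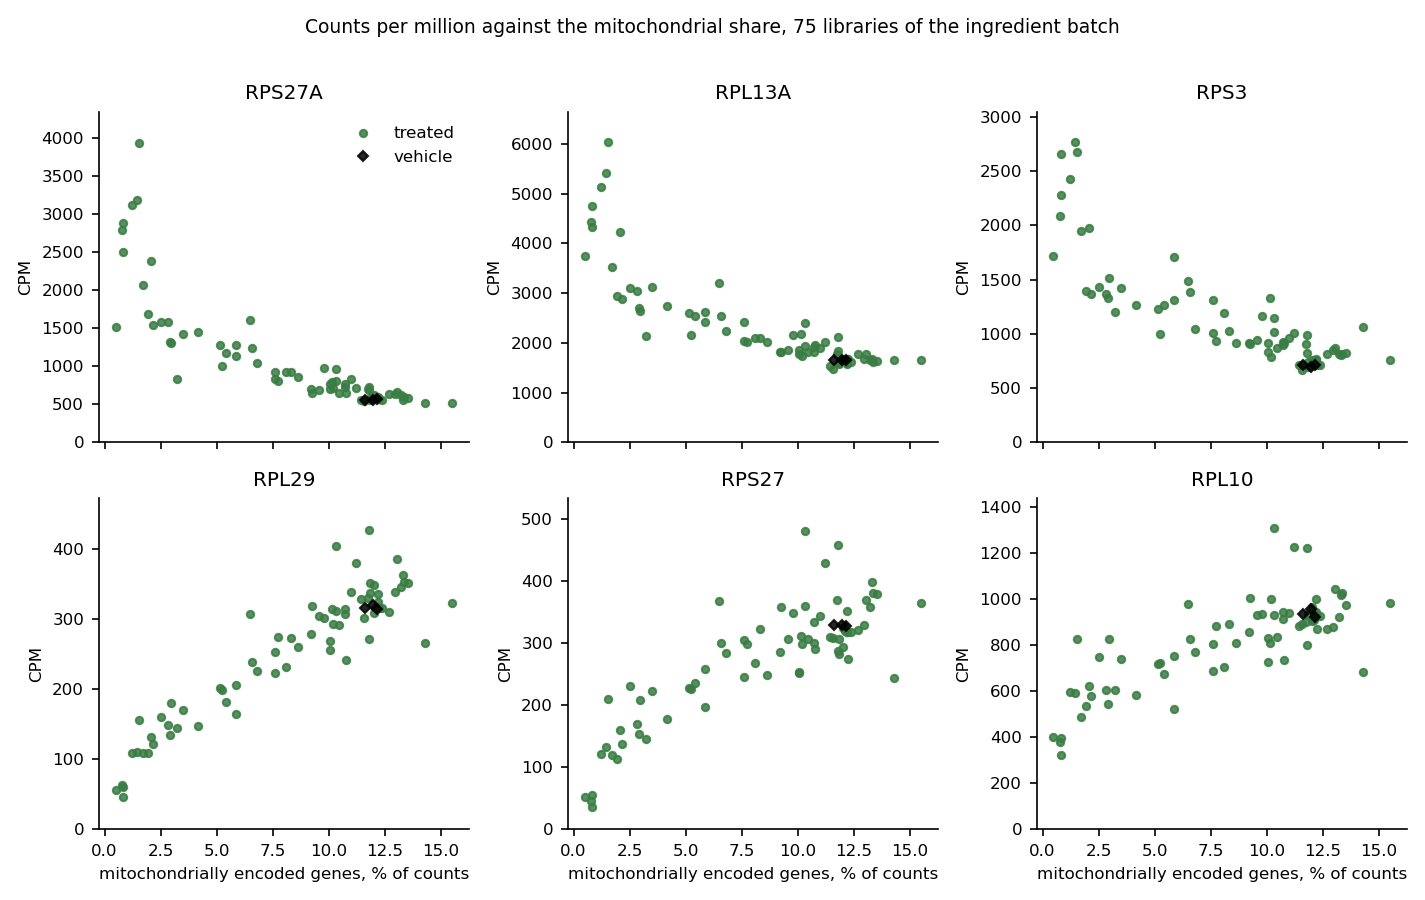
CPM of 6 ribosomal protein genes against the share of counts from the 13 mitochondrially encoded protein genes, 1 point per library of batch 2 (green, 72 treated; black diamonds, 3 vehicle). RPS27A, RPL13A and RPS3 (top) rise toward low mitochondrial shares, RPS27A up to 3928 CPM, and RPL29, RPS27 and RPL10 (bottom) fall, RPL29 down to 46.3 CPM.

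**Figure D5:**
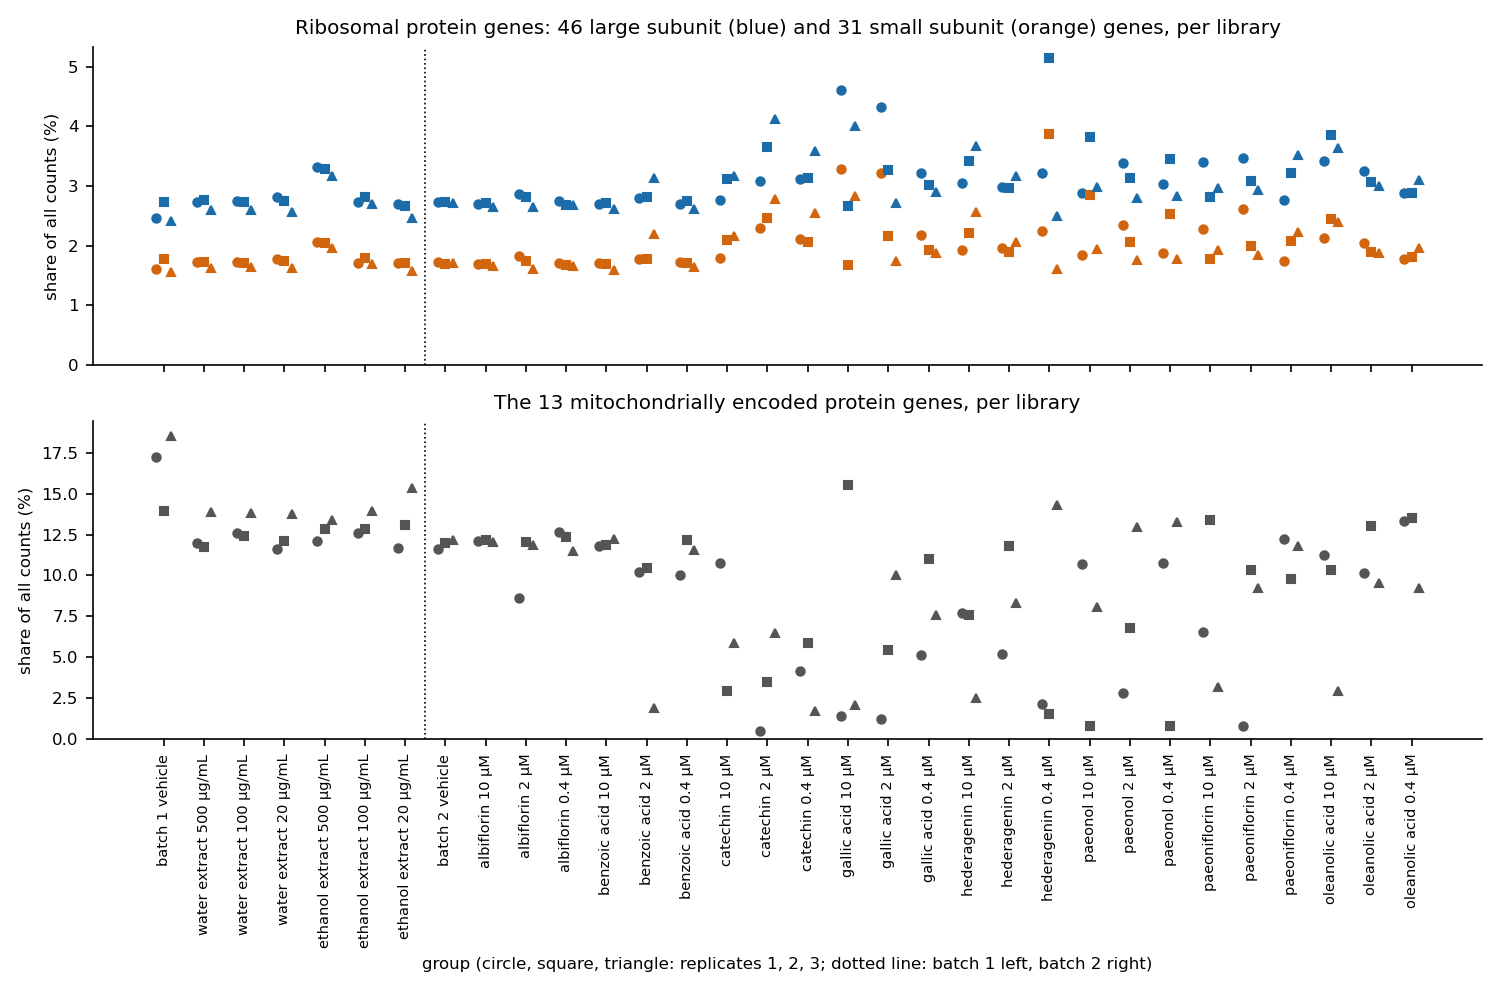
Share of all counts from the 46 large subunit genes (blue) and 31 small subunit genes (orange) in each of the 96 libraries (top) and from the 13 mitochondrially encoded protein genes (bottom), with circles, squares and triangles for replicates 1, 2 and 3. The 3 libraries of ethanol extract at 500 µg/mL lie above vehicle in the top panel. In batch 2, replicates of catechin, gallic acid, hederagenin and paeonol lie far apart in both panels.

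Gallic acid at 10 µM had the most calls among the constituents. Against vehicle 25 of the 77 genes were higher and 0 lower, with 8.51% and 4.96% of all 18324 genes called higher and lower, and the median was 0.40 (0.33 for the large and 0.47 for the small subunit), against 0.02 over all genes. RPS27A stood at 3187, 516 and 2378 CPM against 552, 558 and 562 CPM in vehicle. Replicates 1 and 3 were high and replicate 2 was below vehicle (log2 1.86 ± 0.55, edgeR adjusted p = 0.022). RPL21 stood at 1044, 273 and 760.0 CPM against 248, 241 and 262 CPM (1.47 ± 0.38, 0.011), and RPL18 at 2931, 695 and 1877 CPM against 691, 674 and 693 CPM (1.42 ± 0.45, 0.030). In the same replicates 1 and 3, RPL29 was low, with 110.2, 323 and 132 CPM against 315 to 320.4 CPM in vehicle. The mitochondrial share of the 3 libraries was 1.4%, 15.5% and 2.1%. Without replicate 1 the count fell to 0, without replicate 2 it rose to 40, and without replicate 3 it was 6. With 1 vehicle library left out it was 5 to 9. A fit without the 21 libraries of low mitochondrial share, chosen after seeing the data, left replicate 2 alone in this group and called 0. The fit of the 2 groups alone and the fit on vehicle and groups of the same first digit called 0 as well.

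Hederagenin at 0.4 µM had 10 genes higher and 0 lower (2.19% and 0.857% of all genes), led by RPL21 (1.35 ± 0.38), RPS3 (1.27 ± 0.36) and RPS10 (1.05 ± 0.30). RPS3 stood at 1370, 2681 and 1062 CPM in its libraries, all above the 696 to 716 CPM of vehicle, while RPS27A stood at 1545, 3928 and 522 CPM and did not pass (1.84 ± 0.55, edgeR adjusted p = 0.0501). Catechin at 2 µM had 8 higher and 0 lower (4.5% and 3.55%), led by RPS3 (1.12 ± 0.36), RPS10 (0.93 ± 0.30) and RPS20 (0.80 ± 0.25). RPS3 stood there at 1715, 1422 and 1487 CPM. Catechin at 0.4 µM had 2 higher and 0 lower (3.15% and 1.51%), RPS3 (1.21 ± 0.36) and RPL28 (0.88 ± 0.20). Hederagenin at 10 µM had 1 higher and 0 lower (1.56% and 0.868%), RPL12 (0.46 ± 0.13). These calls depend on the fit. Without a low-count filter hederagenin at 0.4 µM had 1 call, catechin at 2 µM 0, catechin at 0.4 µM 1 and hederagenin at 10 µM 0. In the fit on vehicle and groups of the same first digit all 4 groups had 0, and in a fit of the 2 groups alone hederagenin at 0.4 µM had 0. The fit without the 21 libraries leaves 1 library each for hederagenin at 0.4 µM, catechin at 0.4 µM and catechin at 2 µM. Its calls for these groups have no replicates of their own, and the lone library is assumed to vary like the other groups. Hederagenin at 10 µM kept 2 libraries in that fit and had 22 higher and 1 lower. The share of all genes called in that fit is not given here.

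Markers of cell types moved in several of these groups, and their part in the calls was not tested. The epithelial sum was 15140 to 15216 CPM in vehicle, 17252 to 19651 CPM for catechin at 2 µM, 16354 to 18741 CPM for catechin at 0.4 µM, 14327 to 21249 CPM for gallic acid at 10 µM and 14995 to 22595 CPM for hederagenin at 0.4 µM. The immune sum was 14 to 15.8 CPM in vehicle, 7.92 to 10.4 CPM for catechin at 2 µM, 7.89 to 9.60 CPM for catechin at 0.4 µM, 7.06 to 19.7 CPM for gallic acid and 7.79 to 16.9 CPM for hederagenin at 0.4 µM. Of the 3 libraries of catechin at 2 µM, 1 carried COL1A2. The fibroblast sum of this group was 144 to 1065 CPM with a median of 453 CPM, against 167 to 184 CPM in vehicle. A library of this group that did not carry COL1A2 was thus also above the vehicle range. For oleanolic acid at 10 µM the epithelial sum was 14913 to 15968 CPM and the immune sum 8.06 to 14.2 CPM.

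In oleanolic acid at 10 µM the ribosomal protein genes were high also in libraries of ordinary mitochondrial share. Their share was 5.56%, 6.31% and 6.05%, above the 4.42% to 4.46% of vehicle in all 3 libraries, and their mitochondrial share was 11.2%, 10.3% and 3.0%. The fitted difference was positive for all 77 genes, with a median of 0.35 (0.32 for the large and 0.38 for the small subunit), against 0.01 over all genes. By edgeR 2 genes were called higher and 0 lower (2.58% and 1.87% of all genes), and 19 had an unadjusted p under 0.05. RPL12 stood at 908, 983 and 771 CPM against 587, 585 and 574 CPM in vehicle (log2 0.61 ± 0.13, edgeR adjusted p = 0.0024), and RPL28 at 927, 975 and 1035 CPM against 627, 604 and 656 CPM (0.64 ± 0.20, 0.046). RPL12 kept its call in each of the 18 alternative fits, those with 1 library left out included, and RPL28 lost it in 10 of the 18. RPL5 (0.41 ± 0.19, 0.27), RPS6 (0.48 ± 0.19, 0.16) and RPLP0 (0.37 ± 0.13, 0.096) did not pass, although their groups did not overlap. Without the 21 libraries, which removes replicate 3 here, 65 genes were called higher and 0 lower, and in a fit of the 2 groups alone 43 and 0. The share of all genes called in these fits is not given here, so the counts cannot be read as particular to the ribosomal protein genes. Oleanolic acid at 2 and 0.4 µM had medians of 0.17 and 0.13 and 0 calls. The ribosomal protein share was above vehicle in their libraries too, at 4.89% to 5.31% and 4.66% to 5.06%. It was also above vehicle in every paeoniflorin library, with 4.50% to 5.75% at 0.4 µM. A high share is thus not particular to oleanolic acid at 10 µM. Sample numbers of both constituents begin with the same digit, which cannot be told apart from the treatment.

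In the other 18 constituent groups 0 of the 77 genes were called by edgeR. The share of all genes called in either direction was 0.0382% for albiflorin at 10, at 2 and at 0.4 µM, and 0.0273%, 0.0218% and 0.0327% for benzoic acid at these doses. It was 0.0655% for catechin at 10 µM, and 0.611% and 0.0709% for gallic acid at 2 and 0.4 µM. For hederagenin at 2 µM it was 0.0546%, and for paeonol at 10, 2 and 0.4 µM 0.126%, 0.0873% and 0.278%. For paeoniflorin at these doses it was 0.191%, 0.229% and 0.136%, and for oleanolic acid at 2 and 0.4 µM 0.322% and 0.18%. With so few genes called at all, these zeros say little about the ribosomal protein genes. At an unadjusted p under 0.05 the counts of the 77 ranged from 0 (all albiflorin and benzoic acid groups among them) to 26 (gallic acid at 2 µM). Over these groups and the 6 direct comparisons without a call, DESeq2 called 0 to 3 and limma voom 0 to 47. Medians of the 77 lay between -0.05 and 0.00 for albiflorin and benzoic acid and between 0.03 and 0.28 for the rest. Paeoniflorin at 0.4 µM had a median of 0.24, against 0.02 over all genes, and 76 of 77 differences were positive.

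Constituents whose sample numbers in the labels begin with the same digit were also compared at 10 µM. What the digit stands for is not stated. The digit is 1 for the vehicles of both batches, 3 for all extracts and 6 to 9 for the constituents. Every comparison with vehicle therefore also crosses digits, and the digit cannot be told apart from the treatment there. By edgeR 0 of the 77 genes were called for benzoic acid against albiflorin (0% of all genes, either direction), gallic acid against catechin (0.677%), paeonol against hederagenin (1.03%) and oleanolic acid against paeoniflorin (2.59%). At an unadjusted p under 0.05 the counts were 0, 17, 2 and 3. The medians of the 77 were -0.01, 0.28, -0.09 and 0.25. In the last pair RPL12 stood at 908, 983 and 771 CPM for oleanolic acid, and 76 of the 77 differences were positive. Without the 21 libraries of low mitochondrial share, a fit chosen after seeing the data, 16 genes passed. The share of all genes called in that fit, or with a positive difference, is not given here. These counts therefore cannot be read as particular to the ribosomal protein genes.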

How the data were processed

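RNA-seq libraries of A549 cells were made with a directional kit, per the labels' protocols. Reads were processed with FastQC, Trim Galore, STAR and RSEM 1.3.3 on GRCh38, per the submitters' processing notes, and the authors deposited RSEM expected counts per gene. The table has 60675 genes and 96 libraries, 3 per group, of 15.7 M to 35.6 M counts (M, mega). Values were rounded to integers and tested with edgeR 4.0.16 (R 4.3.3): TMM scaling, filterByExpr, the quasi-likelihood test and Benjamini-Hochberg adjustment over all genes tested, at 0.05, with each batch fitted alone on all its groups. CPM are TMM-scaled. DESeq2 1.42.0, limma 3.58.1 (voom), other scalings, no filter, a replicate block, smaller fits and leaving out libraries were alternatives. The procedure was tested on simulated data.

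The genes and lists were chosen with earlier results of these data known. Genes named are the 5 largest rises and falls called in each comparison at 500 µg/mL, 3 and 3 in others with calls, 18 genes of known role, and up to 4 genes of smallest p per list. Genes named for the 21 libraries of low mitochondrial share, and those followed across extract doses, were picked after their values were seen. Replicates with the same number deviated together (all 3 correlations over 0.1) in 1 of 9 comparisons of batch 1 and 1 of 28 of batch 2. For replicate 3 alone, however, the correlation was 0.24 to 0.54 in every comparison of batch 1. In each group of batch 1, replicate 3 had the lowest ribosomal protein share and the highest mitochondrial share. The main fit has no term for the replicate number, so its p-values do not account for this. In ethanol extract at 100 µg/mL the block gave 42 calls against 29, and in benzoic acid against albiflorin it gave 0 as before. Single values of some genes are not reported here, and plots by gene show 75 of the 77; all 77 are in the counts.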

Additional observations from a re-analysis of the deposited data

How the results depend on the processing

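Counts are genes called of the 77. The share of all genes called is not given for these alternative fits, nor for the counts above at an unadjusted p under 0.05. Over the constituents against vehicle the 48 calls became 89 with DESeq2, 526 with limma voom, 20 without a low-count filter, 288 with the 2 groups alone, and, with alternatives chosen after seeing the data, 275 without the libraries of low mitochondrial share and 16 with vehicle and groups of the same first digit. In that order of settings, catechin at 2 µM (8) gave 22, 41, 0, 16, 64 and 0, and 16 without COL1A2 libraries. Catechin at 0.4 µM (2) gave 6, 51, 1, 56, 47 and 0, and 5 with library totals. Hederagenin at 10 µM (1) gave 2, 33, 0, 31, 23 and 0, with 3 by totals, 0 by TMM without these genes and 0 without COL1A2 libraries. Hederagenin at 0.4 µM (10) gave 25, 51, 1, 0, 20 and 0, with 2 by totals and 18 without COL1A2 libraries. Gallic acid at 10 µM (25) gave 64 with voom and 0 in each of the last 3. Oleanolic acid at 10 µM (2) gave 62 with voom, 1 with RLE, 5 by totals, 1 without a filter, 1 with the replicate block, 43, 65 and 15 in the last 3, and 1 without COL1A2 libraries. Pairs of the same first digit (0) gave 2, 76, 2 by totals, 16 without low mitochondrial share and 1 with the same digit. The ethanol extract at 20 µg/mL (11) gave 21 with DESeq2, 28 without a filter, 29 with the replicate block and 0 with the 2 groups alone. The causes were not tested, except that smaller fits hold fewer libraries.

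With 1 library left out, counts were 22 to 38, 16 to 34 and 10 to 29 for the water extract at 500, 100 and 20 µg/mL, 52 to 63, 17 to 38 and 6 to 24 for the ethanol extract, 63 to 69 between extracts at 500 µg/mL, 132 to 215 over the extracts, 0 to 40 for gallic acid, 0 to 2 for hederagenin and 1 to 1 for oleanolic acid at 10 µM. Leaving out single libraries was not run for constituents at 2 and 0.4 µM. Of single genes, 11 values reversed. Without low mitochondrial share these were RPL5 at catechin 2 µM (0.41), RPL3 (-0.23) and RPSA (-0.43) at catechin 0.4 µM, RPS27A (-0.10) and RPS14 (-0.045) at gallic acid 10 µM, and RPLP2 (-0.61), RPL3 (-0.28), RPSA (-0.47) and RPS19 (-0.52) at hederagenin 0.4 µM. With voom they were RPL11 (-0.36) and RPLP0 (-0.18) there. Fits without low mitochondrial share left 1 library in some groups, which is assumed to vary like the others. Depth left none of the 77 genes untested.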
